A study of Saccharomyces cerevisiae with 21 samples.

Results

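The 51 genes described here are GCN4 (YEL009C, chromosome V, 138918 to 139763, minus strand), the gene of the transcription factor Gcn4, and 50 genes whose enzymes make amino acids in budding yeast. They were chosen by locus name from 6600 gene features: 4 in histidine synthesis, 7 in arginine, 6 in lysine, 10 in leucine, isoleucine and valine (the branched-chain amino acids), 7 in aromatic amino acids, 5 in sulfur assimilation and methionine, 4 in threonine, 3 in serine, 2 in glutamate and glutamine and 2 in asparagine. Pathway genes deleted in the parent strain were left out of the choice. All 51 passed the filter on low counts in each of the 3 fits and all 51 match a protein-coding gene of the RefSeq R64 assembly with the same start and end.

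Poly(A) RNA was sequenced in 21 libraries of strain BY4742 (MAT alpha, his3Δ1 leu2Δ0 lys2Δ0 ura3Δ0), in which NAB2 carried a fluorescent tag at its own locus and a HISMX marker. The wild type carried NAB2-yEGFP. The allele of the IDR strain, ΔQQQP-ΔRGG, lacks residues 104 to 263 and has an SV40 nuclear localization signal before yEGFP, and the interface strain carried NAB2-F450A-GFP. Whole cell libraries came from cells in synthetic complete medium with 2% glucose at mid-log phase (unstressed) and from cells washed 3 times and then held for 24 h in medium lacking glucose (starved). Each of these 6 groups has n = 2. Nuclear extracts of starved cells, made from spheroplasts on a sucrose gradient, gave 3 libraries a strain. All groups, the controls included, lack LYS2 and LEU2, so the lysine and leucine pathways each miss an enzyme and these amino acids had to come from the medium, and all carry his3Δ1 beside the HISMX marker. The labels do not say whether replicates came from separate cultures, so every p-value measures only the spread between these libraries.

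Gcn4 is the activator of the general amino acid control of yeast. When cells lack any of many amino acids, uncharged tRNA activates the kinase Gcn2, most translation slows, and the GCN4 mRNA, held back by short open reading frames in its leader, is translated more. Gcn4 then binds the sequence TGACTC in the promoters of biosynthesis genes of many pathways, and pathway regulators such as Leu3 and Lys14 act beside it. Since the control of GCN4 is largely translational, the level of its mRNA is not the level of its protein, which was not measured here.

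Whole cell libraries held 4815254 to 14069868 counts, and 7 nuclear libraries held 6353585 to 23138938. Nuclear wild type replicate 3 (1079 counts) and the nuclear library labelled interface strain replicate 3 (3981 counts) were left out of every fit and of the values below. Replicate 1 of the unstressed wild type stood apart: its median Spearman correlation over genes with the other unstressed libraries was 0.883, and 16 of the 51 genes differed more than 2-fold from replicate 2 of the same group, against 0 of 51 in each other whole cell pair. Wild type starvation values that move by over 1.5 times without it, or whose call changes, are therefore also given without it. LEU2, LYS2 and URA3 had at most 5 counts in any library. HIS3, of which the parent's allele lacks a part, had 43 to 752 counts outside the 2 libraries left out. Markers of alpha cells stood at 73.2 CPM or more while those of a cells reached at most 53.3 CPM. Levels are in CPM, a gene's counts scaled to a library total of 1000000 gene counts. Fold changes come from edgeR, whose TMM factors rescale the libraries by their composition, so a log2 fold change can differ from the ratio of the CPM values. A gene rose, fell or was higher or lower only where its edgeR adjusted p over all genes was under 0.05. RNA was measured relative to all counted RNA, and less RNA per cell cannot be told apart from a change in the other transcripts.

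The promoters of 8 genes named in the results below are shown as a description. Each line gives the 150 bases from 250 to 101 before the start codon in the RefSeq R64 assembly, 5′ to 3′ on the gene's own strand. The capitals mark the Gcn4 sequence TGACTC (or GAGTCA, its reverse complement), the palindromic sequence of Leu3, TCCNNNGGA of Lys14 and CACGTG of Cbf1, a factor of sulfur genes.
HIS4 (YCL030C), chrIII:68434-68583, minus strand, with TGACTC at 243 and 199 before the start: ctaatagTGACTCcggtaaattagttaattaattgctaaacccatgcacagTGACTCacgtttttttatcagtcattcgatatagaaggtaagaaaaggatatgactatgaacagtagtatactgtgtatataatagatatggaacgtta
HIS7 (YBR248C), chrII:716566-716715, minus strand, with the same sequence reversed at 230 and 144: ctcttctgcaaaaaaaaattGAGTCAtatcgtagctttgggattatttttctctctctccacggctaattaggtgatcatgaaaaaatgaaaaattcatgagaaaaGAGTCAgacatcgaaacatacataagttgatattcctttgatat
LYS1 (YIR034C), chrIX:420837-420986, minus strand, with the Gcn4 sequence at 249 and 134 and the Lys14 sequence at 196: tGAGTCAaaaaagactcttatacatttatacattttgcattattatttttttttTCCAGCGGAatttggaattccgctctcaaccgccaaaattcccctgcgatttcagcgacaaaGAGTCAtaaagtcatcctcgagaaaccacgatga
LYS9 (YNR050C), chrXIV:715489-715638, minus strand, with the Lys14 sequence at 225 and 163: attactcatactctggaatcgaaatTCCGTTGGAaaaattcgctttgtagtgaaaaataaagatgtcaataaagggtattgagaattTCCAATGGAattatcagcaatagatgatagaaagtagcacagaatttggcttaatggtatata
LYS20 (YDL182W), chrIV:133187-133336, plus strand, with none of the 4 sequences: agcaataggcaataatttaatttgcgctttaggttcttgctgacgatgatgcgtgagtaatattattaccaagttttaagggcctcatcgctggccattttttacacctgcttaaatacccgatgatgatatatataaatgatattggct
BAT1 (YHR208W), chrVIII:517282-517431, plus strand, with the Gcn4 sequence at 171 and the Leu3 sequence at 147: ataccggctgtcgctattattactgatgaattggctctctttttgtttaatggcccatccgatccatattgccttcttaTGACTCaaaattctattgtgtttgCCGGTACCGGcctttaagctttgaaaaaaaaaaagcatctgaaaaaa
BAT2 (YJR148W), chrX:705494-705643, plus strand, with none of the 4 sequences: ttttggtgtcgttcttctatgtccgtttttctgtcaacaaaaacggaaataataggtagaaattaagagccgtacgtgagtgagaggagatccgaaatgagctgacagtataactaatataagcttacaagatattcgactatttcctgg
MET16 (YPR167C), chrXVI:877733-877882, minus strand, with the Cbf1 sequence at 178 and the Gcn4 sequence at 148: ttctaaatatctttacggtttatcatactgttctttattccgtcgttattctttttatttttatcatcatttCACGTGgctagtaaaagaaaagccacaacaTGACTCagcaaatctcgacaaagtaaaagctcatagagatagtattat

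Over the window from 250 bases before to 50 after the start codon, TGACTC on either strand was present in 27 of the 51 genes, or 52.9%, and in 8.11% of 5868 windows of the same length across the genome. All 4 histidine genes and both asparagine genes held it, as did 3 of 7 arginine, 2 of 6 lysine, 6 of 10 branched-chain, 4 of 7 aromatic, 1 of 5 sulfur, 3 of 4 threonine and 2 of 3 serine genes. Neither glutamate gene held it, and GCN4 itself held none. The Leu3 sequence was in BAT1 and LEU1 alone among the 51 (3.92%, against 0.136% of all windows). The Lys14 sequence was in LYS1, LYS9, LYS12 and LEU9 (7.84%, against 3.46%), and CACGTG in HIS1, HIS7, MET14 and MET16 (7.84%, against 2.97%). A match in these letters is a description of the sequence, and binding was not measured. Sequences outside the window or differing by a letter were not counted.

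Together the 51 genes took 1.28% to 1.67% of the counts in unstressed libraries, 1.69% to 1.90% in starved whole cell libraries and 1.46% to 1.60% in the 7 deeper nuclear libraries. Per kilobase of gene they were well expressed: their median level stood at the 75.2nd percentile of all features with counts in the unstressed wild type and at the 86.5th in the starved wild type. HIS1, the enzyme of the first step of histidine synthesis, had the highest level per kilobase in all 3 unstressed groups, with 1109 ± 20.3 CPM per kb (SD, n = 2) in the wild type. In starved whole cells ASN2, an asparagine synthetase, led in the wild type with 1008 ± 23.9 CPM per kb and in the interface strain with 979 ± 66.0, whereas LYS20 led in the IDR strain with 1431 ± 180 (SD, n = 2 each). ARG3, the ornithine carbamoyltransferase, was the lowest of the 51 in all 9 groups, with group means between 7.32 and 20.9 CPM per kb.

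Under starvation 5 of 6 lysine genes rose in every strain, while HIS1 and HIS7 of the histidine pathway fell in every strain. In the wild type 24 of the 51 genes rose and 12 fell, where 31.7% of all 5853 genes tested rose and 34.5% fell (66.2% in all). In the IDR strain 18 rose and 15 fell, against 33.0% and 34.3% of all genes (67.3% in all), and in the interface strain 20 rose and 9 fell, against 29.7% and 30.3% (60.0% in all). The median log2 fold change of the 51 was 0.39 in the wild type, 0.16 in the IDR strain and 0.09 in the interface strain, and that of all genes was -0.05 in each. In all 3 strains 14 genes rose, among them CPA1, LYS1, LYS4, LYS9, LYS20, LYS21, BAT2, MET16, MET17, GDH1, ASN1, ASN2 and GCN4. HIS1, HIS7, ILV3 and ILV5 fell in all 3. ILV2, ILV6, TRP2, MET3 and THR1 passed in none, and HIS4, BAT1 and SER3 rose in the wild type and fell in the IDR strain. Scaled by library size alone, the median of all genes stood at -0.44 in the IDR strain and -0.41 in the interface strain, and the counts became 12 risen and 20 fallen in the IDR strain and 13 and 18 in the interface strain. Among all genes called, the share that rose then went from 49.0% to 35.4% and from 49.5% to 33.6%. Without replicate 1 of the unstressed wild type some of the 36 calls in the wild type were lost. The median of the 51 there was then 0.22, beside -0.004 for all genes. Some calls were also lost without a starved wild type library, and the share of all genes called fell as well.

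**Figure D1:**
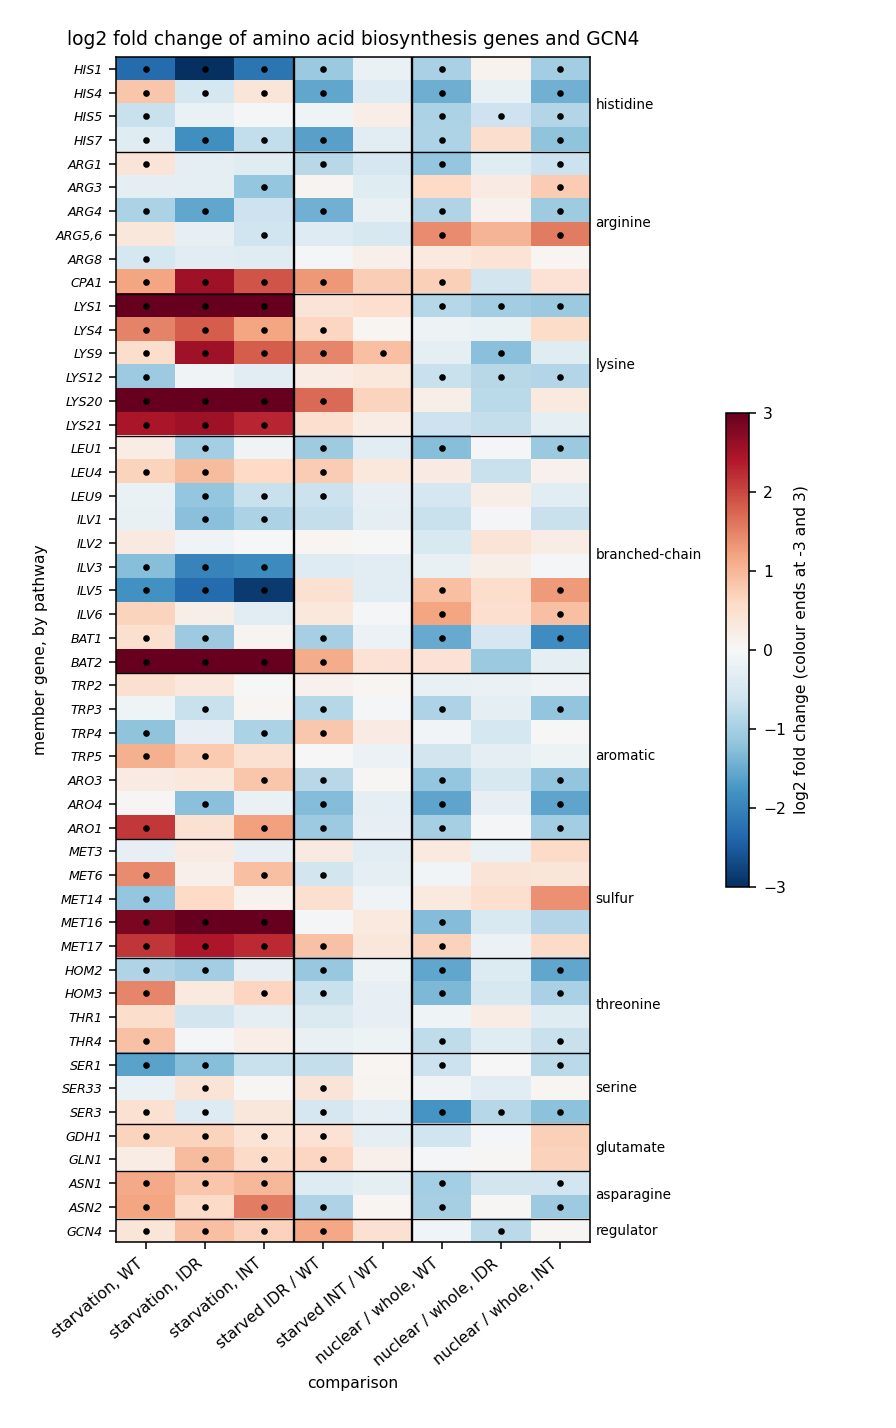
Log2 fold change of 50 of the 51 genes (vertical axis, by pathway) in 8 comparisons (horizontal axis); red is higher, blue is lower, and a black dot marks an edgeR adjusted p under 0.05. The lysine rows other than LYS12, and BAT2, MET16 and MET17, are red under starvation in all 3 strains, while HIS1, ILV3 and ILV5 are blue.

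In the lysine pathway 5 of 6 genes rose in every strain, with medians of 1.97, 2.54 and 2.05. Its 6 genes summed to 1020 to 1240 CPM in the unstressed libraries, to 2496 and 2548 in the starved wild type, to 4311 and 4715 in the starved IDR strain and to 2971 and 3561 in the starved interface strain, so no starved library overlapped an unstressed one. LYS20 and LYS21 encode homocitrate synthases, which start the pathway. LYS20 stood at 29.6 and 66.6 CPM in the unstressed wild type, 98.6 and 102 in the IDR strain and 90.9 and 82.6 in the interface strain. Starved, it stood at 626 and 659 CPM in the wild type, 1678 and 2005 in the IDR strain and 781 and 1120 in the interface strain. All starved libraries were above all unstressed ones, and the log2 fold changes were 3.80 ± 0.26 (SE; edgeR adjusted p = 2.89e-06), 4.60 ± 0.27 (7.18e-07) and 3.81 ± 0.26 (2.37e-06). LYS21 rose by 2.46 ± 0.23, 2.55 ± 0.23 and 2.29 ± 0.23 on the same scale. The coding sequences of LYS20 and LYS21 share 91.6% of their bases, with 278 identical bases in a row, so how the authors' counting split reads between them is uncertain.

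Further down the lysine pathway, LYS1, the saccharopine dehydrogenase that releases lysine, held 21.5 and 41.7 CPM in the unstressed wild type and 328 and 331 in the starved one. It rose by 3.42 ± 0.20 in the wild type (adjusted p = 8.7e-07), 3.37 ± 0.19 in the IDR strain and 3.60 ± 0.20 in the interface strain. LYS4, the homoaconitase, rose by 1.48 ± 0.17, 1.82 ± 0.17 and 1.18 ± 0.17. LYS9, the saccharopine dehydrogenase that uses glutamate, behaved differently between strains. It held 208 and 225 CPM in the unstressed wild type and 311 and 333 in the starved one, a rise of 0.53 ± 0.15 (adjusted p = 0.0122) whose call was lost without starved replicate 2. In the IDR strain it went from 181 and 173 CPM to 787 and 774, a rise of 2.54 ± 0.16 (1.15e-06), and in the interface strain from 199 and 208 to 545 and 570, a rise of 1.81 ± 0.16 (1.1e-05). LYS12, the homoisocitrate dehydrogenase, fell in the wild type (-1.08 ± 0.19, 0.000821), with values of -0.10 ± 0.19 in the IDR strain and -0.31 ± 0.19 in the interface strain that did not pass.

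Of 5 sulfur genes, 3 rose and 1 fell in the wild type, 2 rose in the IDR strain and 3 in the interface strain. MET16, which reduces activated sulfate, stood at 46.5 and 40.4 CPM in the unstressed wild type and at 306 and 343 in the starved one. It went from 35.0 and 33.6 to 299 and 258 CPM in the IDR strain and from 34.1 and 39.0 to 361 and 374 in the interface strain, and the groups did not overlap. The rises were 2.83 ± 0.23 (adjusted p = 8.56e-06), 3.42 ± 0.24 (2.02e-06) and 3.69 ± 0.24 (1.82e-06). MET17, the sulfhydrylase that makes homocysteine, rose by 2.14 ± 0.16, 2.43 ± 0.16 and 2.23 ± 0.16. MET6, the methionine synthase, went from 116 and 199 CPM to 428 and 407 in the wild type and rose by 1.42 ± 0.13 (1.72e-05), and it rose by 0.89 ± 0.13 in the interface strain. MET6 in the IDR strain stood at 301 and 295 CPM unstressed and at 250 and 257 starved, with a log2 value of 0.16 ± 0.13 that did not pass. MET3, the ATP sulfurylase of the first step, passed in no strain, and MET14, the kinase of the next, fell in the wild type (-1.17 ± 0.42, 0.0322). That call was lost without either starved wild type library and without replicate 1 of the unstressed wild type (-0.14 ± 0.18), where MET14 held 143 CPM against 67.2 in replicate 2.

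Both asparagine genes rose in all 3 strains. The asparagine synthetase ASN2 held 694 and 791 CPM in the unstressed wild type and 1762 and 1704 in the starved one, and rose by 1.19 ± 0.15 (adjusted p = 0.000105). In the interface strain it went from 756 and 746 to 1603 and 1763 CPM, a rise of 1.52 ± 0.15 (2.27e-05). For the IDR strain the step was from 730 and 700 to 792 and 812 CPM, a rise of 0.56 ± 0.15 (0.00711) that was lost without unstressed replicate 2 and under scaling by library size (0.17). ASN1, its paralog, rose by 1.14 ± 0.14, 0.82 ± 0.14 and 0.99 ± 0.14. GDH1, the glutamate dehydrogenase that assimilates ammonia, rose by 0.67 ± 0.12, 0.67 ± 0.12 and 0.41 ± 0.12, of which both mutant calls were lost under scaling by library size. Its CPM overlapped in the interface strain, at 673 and 694 unstressed and 692 and 722 starved, and that call was lost without any 1 of 3 libraries, both unstressed ones and starved replicate 2. GLN1, the glutamine synthetase, rose in the IDR strain (0.95 ± 0.14, 0.000272) and in the interface strain (0.58 ± 0.14, 0.00621), and its 0.22 ± 0.14 in the wild type did not pass, although without replicate 1 of the unstressed wild type it did (0.34 ± 0.12, 0.0301).

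Among the branched-chain genes ILV5 and ILV3 fell and BAT2 rose in all 3 strains. ILV5, the reductoisomerase, held 225 and 701 CPM in the unstressed wild type and 126 and 120 in the starved one. It held 935 and 994 against 145 and 151 CPM in the IDR strain and 910 and 812 against 78.5 and 106 in the interface strain. The log2 fold changes were -1.82 ± 0.31 (adjusted p = 0.0007), -2.31 ± 0.31 (0.000146) and -2.86 ± 0.32 (5.57e-05), with no overlap between unstressed and starved libraries. ILV3, the dehydratase of the step after it, fell likewise (-1.28 ± 0.23, -1.99 ± 0.24 and -1.92 ± 0.23). The threonine deaminase gene ILV1 fell in both mutants (-1.25 ± 0.24 and -0.94 ± 0.23). In the wild type it passed without unstressed replicate 1 (-0.59 ± 0.13, 0.00277) and not with it (-0.23 ± 0.23). ILV2 and ILV6, the catalytic and regulatory subunits of acetolactate synthase, passed in no strain.

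BAT1 and BAT2 encode the mitochondrial and the cytosolic branched-chain aminotransferase, whose coding sequences share 72.2% of their bases. BAT2 stood at 57.4 and 95.9 CPM in the unstressed wild type, 67.3 and 76.9 in the IDR strain and 98.0 and 95.9 in the interface strain, and starvation brought it to 832 and 801, 1536 and 1583, and 936 and 1118 CPM. Every starved library was far above every unstressed one, and BAT2 rose by 3.43 ± 0.16 (adjusted p = 3.48e-07), 4.83 ± 0.17 (4.67e-08) and 3.76 ± 0.16 (1.44e-07). BAT1 stood at 195 and 428 CPM in the unstressed wild type and at 424 and 419 when starved, so the groups overlapped, and its rise of 0.49 ± 0.19 (0.0416) was lost without either starved library and without unstressed replicate 1 (0.22 ± 0.11). BAT1 in the IDR strain went from 518 and 514 to 177 and 193 CPM (-1.08 ± 0.19, 0.000715). The isopropylmalate synthase paralogs LEU4 and LEU9 also parted: LEU4 rose in the wild type (0.67 ± 0.24, lost without either starved library and, at 0.35 ± 0.18, without unstressed replicate 1) and the IDR strain (0.95 ± 0.24, lost without starved replicate 2), while LEU9 fell in the IDR strain (-1.15 ± 0.12) and the interface strain (-0.68 ± 0.12). LEU1, the isomerase, fell in the IDR strain (-1.01 ± 0.13, 8.57e-05).

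Of 4 histidine genes, 3 fell and 1 rose in the wild type, 3 fell in the IDR strain, and 2 fell and 1 rose in the interface strain. HIS1 stood at 930 to 1014 CPM in the 6 unstressed libraries. Starved, it stood at 208 in both wild type libraries, at 86.3 and 83.0 in the IDR strain and at 157 and 180 in the interface strain, with log2 fold changes of -2.30 ± 0.18 (adjusted p = 5.9e-06), -3.06 ± 0.18 (8.22e-07) and -2.19 ± 0.18 (6.61e-06). HIS7, the imidazole glycerol phosphate synthase, held 183 and 269 CPM in the unstressed wild type and 183 and 167 in the starved one, a change of -0.37 ± 0.13 (0.0288) whose call was lost without either starved library. HIS7 in the IDR strain went from 229 and 243 to 52.2 and 47.2 CPM (-1.85 ± 0.13, 2.37e-06), and in the interface strain from 268 and 289 to 127 and 135 (-0.73 ± 0.13, 0.000974). HIS4, which encodes 3 activities of the pathway in 1 protein, stood at 369 and 516 CPM in the unstressed wild type and 835 and 750 in the starved one, and rose by 0.83 ± 0.13 (0.000411). HIS4 in the IDR strain went from 429 and 462 to 232 and 241 CPM (-0.52 ± 0.13, 0.00603). In the interface strain HIS4 held 538 and 573 CPM unstressed and 537 and 583 starved, overlapping groups, and its rise of 0.37 ± 0.13 (0.0319) was lost without any 1 of the 4 libraries and was 0.01 under scaling by library size. HIS5, the aminotransferase, fell in the wild type (-0.67 ± 0.22, 0.0203), a call lost without unstressed replicate 1 (-0.28 ± 0.14) or either starved library, and passed in neither mutant.

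**Figure D2:**
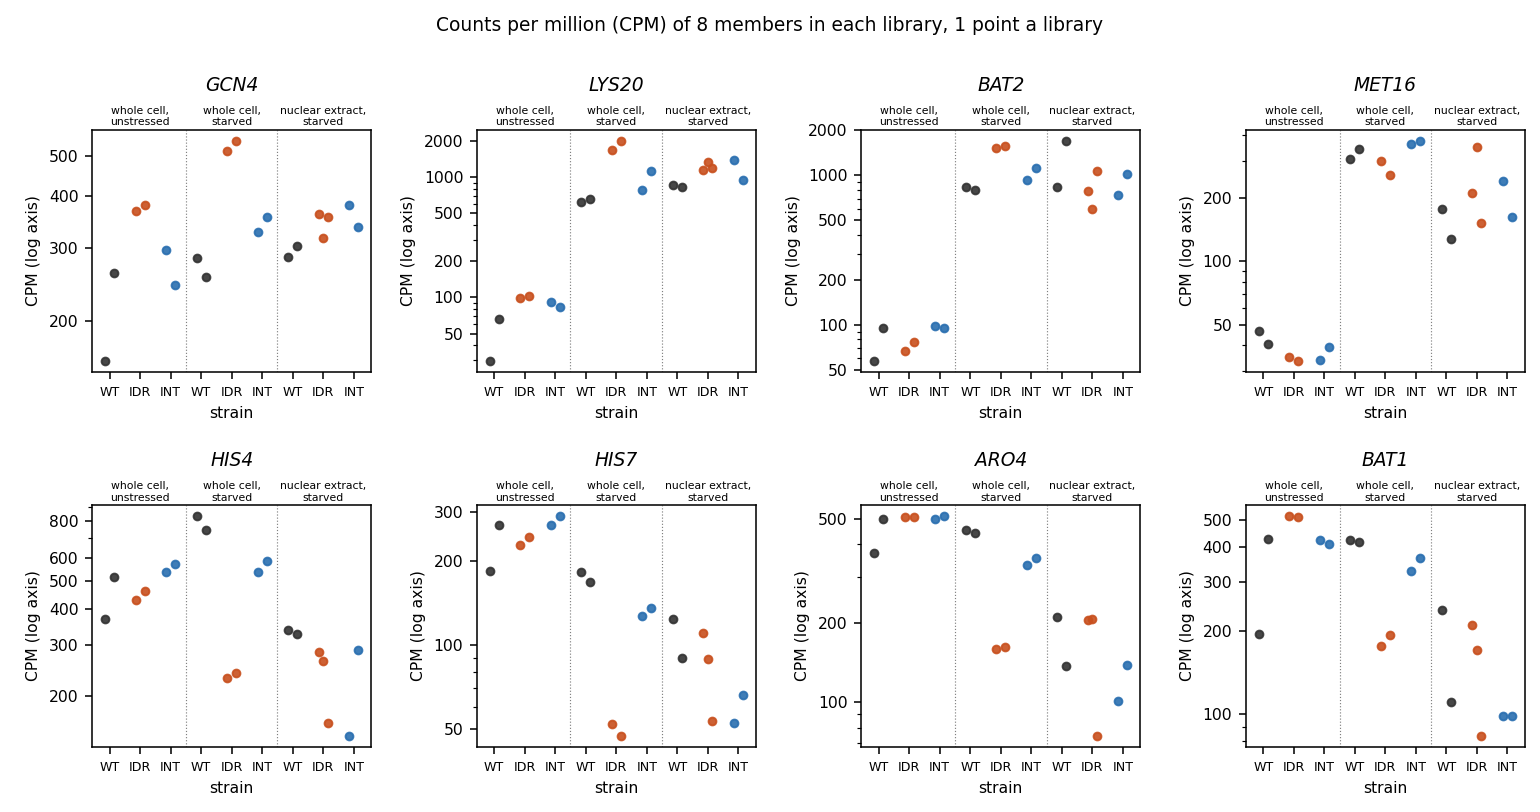
CPM on a log axis (vertical) of 8 genes in each library, by strain (horizontal) and by condition and fraction (blocks); each point is 1 library, and the 2 nuclear libraries with few counts are not drawn. LYS20, BAT2 and MET16 are high in every starved whole cell library, and HIS4, HIS7, ARO4 and BAT1 are low in the 2 starved IDR strain libraries.

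Of 7 arginine genes, 3 rose and 2 fell in the wild type, 2 rose and 1 fell in the IDR strain, and 2 rose and 2 fell in the interface strain. CPA1, a subunit of the arginine-specific carbamoyl phosphate synthetase, went from 91.3 and 138 CPM to 268 and 250 in the wild type, from 132 and 124 to 555 and 572 in the IDR strain and from 140 and 143 to 368 and 442 in the interface strain, without overlap. CPA1 rose by 1.18 ± 0.14 (adjusted p = 6.82e-05), 2.54 ± 0.14 (5.26e-07) and 1.88 ± 0.14 (3.91e-06). ARG4, the argininosuccinate lyase, fell in the wild type (-0.94 ± 0.26; -0.39 ± 0.11 without replicate 1 of the unstressed wild type, and lost without starved replicate 2) and in the IDR strain (-1.57 ± 0.26). ARG1, the synthetase before it, rose in the wild type (0.39 ± 0.15, 0.0387), a call lost without unstressed replicate 1 (0.25 ± 0.12) or either starved library. ARG3 and ARG5,6 fell in the interface strain (-1.15 ± 0.25 and -0.59 ± 0.22, the second lost without any 1 of 3 libraries, both unstressed ones and starved replicate 1), and ARG8 fell in the wild type (-0.52 ± 0.17, lost without either starved library and, at -0.37 ± 0.16, without unstressed replicate 1).

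In the aromatic pathway ARO1, whose protein carries out 5 consecutive steps, went from 61.6 and 167 CPM to 485 and 464 in the wild type and rose by 2.13 ± 0.26 (adjusted p = 9.77e-05; 1.75 ± 0.15 without unstressed replicate 1). It rose by 1.23 ± 0.25 in the interface strain, and in the IDR strain it held 185 and 196 CPM unstressed and 191 and 205 starved, with 0.45 ± 0.25 not passing. ARO4 and ARO3 make the first intermediate. ARO4 fell in the IDR strain from 507 and 509 to 160 and 163 CPM (-1.26 ± 0.12, 1.42e-05) and gave 0.04 ± 0.12 in the wild type and -0.20 ± 0.12 in the interface strain, neither past the threshold. ARO3 rose in the interface strain (0.84 ± 0.23, lost without either unstressed library). Its 0.26 ± 0.23 in the wild type passed without unstressed replicate 1 (0.75 ± 0.10, 6.55e-05). Of the tryptophan genes, TRP4 fell in the wild type (-1.21 ± 0.13) and the interface strain (-0.95 ± 0.13). TRP5, tryptophan synthase, rose in the wild type (1.06 ± 0.27; 0.63 ± 0.12 without unstressed replicate 1) and the IDR strain (0.79 ± 0.27, lost without any 1 of its 4 libraries), and TRP3 fell in the IDR strain (-0.67 ± 0.17, lost without starved replicate 1).

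Of 4 threonine genes, 2 rose and 1 fell in the wild type, 1 fell in the IDR strain and 1 rose in the interface strain. HOM3, the aspartokinase that opens the branch to threonine and methionine, rose from 43.3 and 97.8 CPM to 182 and 189 (1.45 ± 0.21, adjusted p = 0.000235) and rose in the interface strain (0.64 ± 0.20, lost without replicate 2 of either condition). HOM2, the next enzyme, fell in the wild type (-0.91 ± 0.27, lost without either starved library; -0.31 ± 0.11 without unstressed replicate 1) and the IDR strain (-1.03 ± 0.27, lost without starved replicate 1). THR4, threonine synthase, rose in the wild type (0.88 ± 0.29, lost without either starved library; 0.44 ± 0.15 without unstressed replicate 1). SER1, the phosphoserine aminotransferase, went from 840 and 494 CPM to 246 and 233 in the wild type (-1.60 ± 0.34, 0.00247; -0.80 ± 0.13 without unstressed replicate 1), and it fell in the IDR strain (-1.28 ± 0.34, lost without starved replicate 2). SER3 and SER33, paralogs of the first step with 82.8% of coding bases shared, had small changes: SER3 rose in the wild type (0.45 ± 0.15, lost without starved replicate 1) and fell in the IDR strain (-0.38 ± 0.15, lost without any 1 of its 4 libraries). SER33 rose in the IDR strain (0.39 ± 0.13, lost without any 1 of the 4 libraries) although its CPM stayed at 107 and 98.1 unstressed and 104 and 101 starved, and under scaling by library size its value was -0.0024.

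GCN4 mRNA rose in all 3 strains, in the wild type with overlapping groups. It stood at 160 and 261 CPM in the unstressed wild type and 284 and 255 in the starved one. Its rise of 0.37 ± 0.14 (edgeR adjusted p = 0.0442) was lost without unstressed replicate 1 (0.29 ± 0.14) and without either starved library. GCN4 also missed the threshold under scaling by library size (0.36, 0.191) and with no filter on low counts (0.0628). The same held for GCN4 with a replicate block (0.0573) and with the compared groups alone (0.222). In the IDR strain it went from 369 and 381 to 514 and 544 CPM, a rise of 0.89 ± 0.14 (0.00044), and in the interface strain from 297 and 244 to 329 and 356, a rise of 0.70 ± 0.14 (0.00235). Neither mutant's groups overlapped, and under scaling by library size both values fell short of the threshold (0.50, 0.0723, and 0.34, 0.211). Members were also divided by TGACTC in the promoter window: in the wild type 9 of the 27 rose and 11 fell, with a median of -0.13, while 15 of the 24 without it rose and 1 fell, with a median of 0.49. Across all genes 164 of 463 with the sequence rose and 147 fell (median 0.03), and 1608 of 5166 without it rose and 1844 fell (median -0.09). In the IDR strain the medians were -0.25 and 0.64, and in the interface strain -0.25 and 0.61, beside 0.21 and -0.09, and 0.08 and -0.09, across all genes. No test was made of this split, in which the pathways differ as well.

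**Figure D3:**
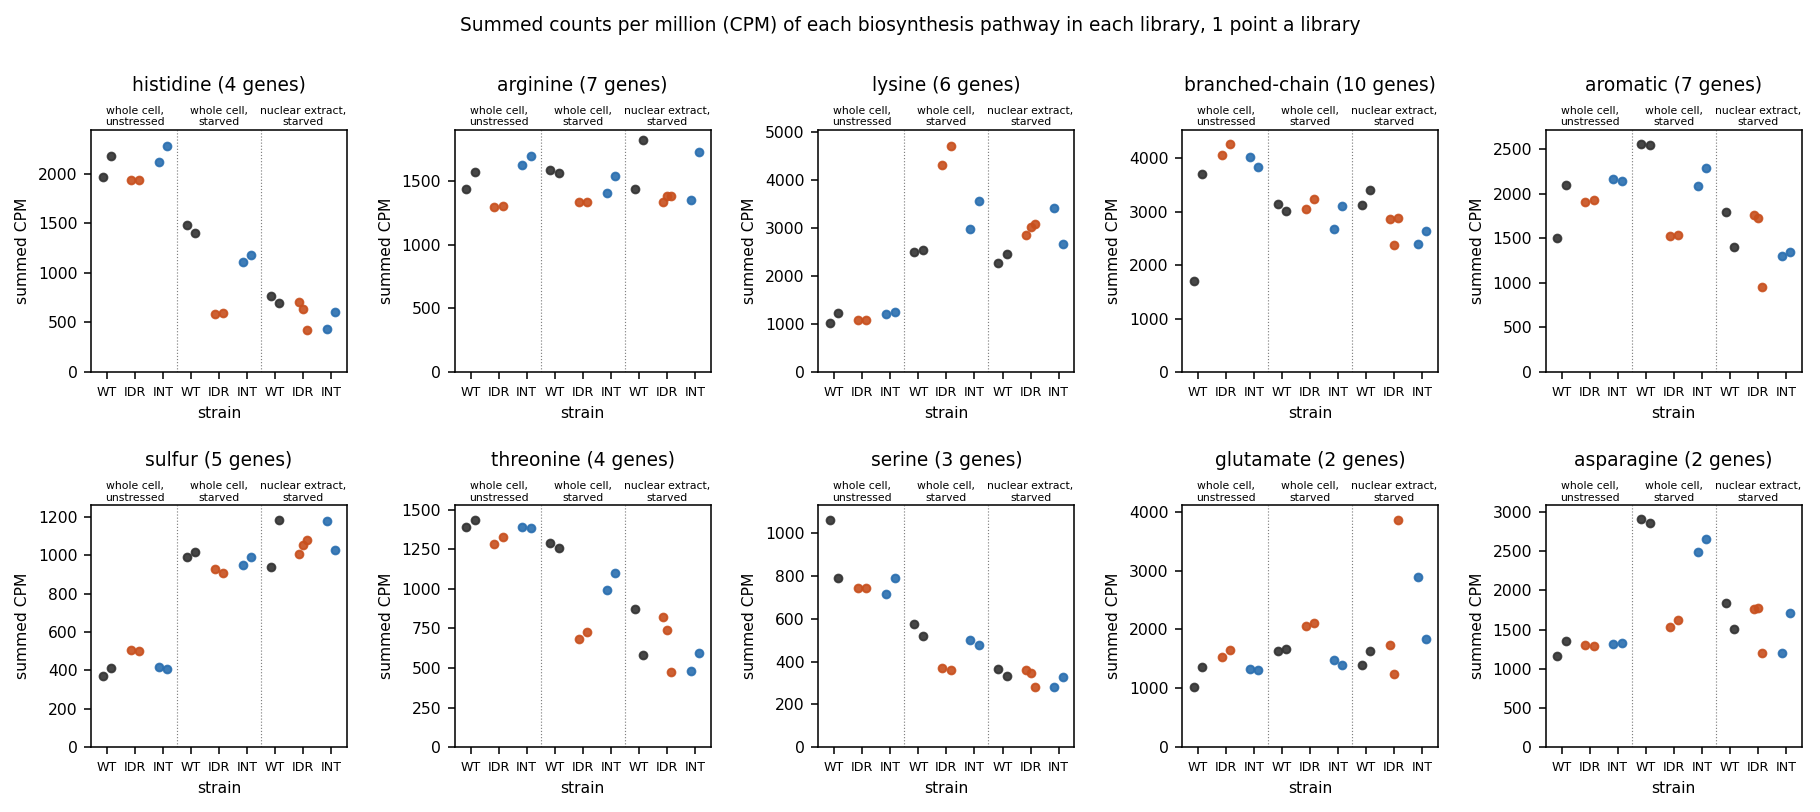
Summed CPM (vertical axis, from 0) of the genes of each of 10 pathways in each library, by strain (horizontal axis) and by condition and fraction (blocks); each point is 1 library. The lysine sum is highest and the histidine sum lowest among starved whole cells in the IDR strain.

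The starved IDR strain differed from the starved wild type in 29 of these genes, with 3 of 4 histidine genes and 4 of 7 aromatic genes lower and 3 of 6 lysine genes higher. In whole cells 12 of the 51 were higher and 17 lower, where 15.9% of all genes were higher and 13.3% lower (29.2% in all), and the median of the 51 was -0.05 beside 0.00 for all genes. All 29 had libraries that did not overlap between the strains. As the 29 were picked by their calls, with n = 2 in each group, this adds no support to them. Without any 1 of the 4 libraries, some of the 29 calls were lost and the share of all genes called fell too. Each such fit leaves 1 library in a group. Fitted with these groups alone, 18 were higher and 24 lower, beside 62.8% of all genes. Scaling by library size gave 6 higher and 18 lower, beside 26.9% of all genes. The share of all called genes that were higher then went from 54.4% to 33.6%, with the median of all genes at -0.18. HIS7 and HIS4 were the lowest against the wild type. HIS7 stood at 183 and 167 CPM in the starved wild type and 52.2 and 47.2 in the IDR strain, a log2 difference of -1.64 ± 0.13 (adjusted p = 0.000184), and HIS4 at 835 and 750 against 232 and 241, a difference of -1.57 ± 0.13 (0.000184). HIS1 was lower too (-1.12 ± 0.17), while HIS5 at -0.14 ± 0.22 did not pass. The histidine genes summed to 1483 and 1405 CPM in the starved wild type, 581 and 591 in the IDR strain and 1110 and 1179 in the interface strain.

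Aromatic genes were also low in the starved IDR strain. ARO4, which lies on chromosome II on the same strand as HIS7 with 416 bases between them, stood at 455 and 443 CPM in the starved wild type and 160 and 163 in the IDR strain, a difference of -1.30 ± 0.12 (adjusted p = 0.000247). ARO1 (-1.08 ± 0.25), TRP3 (-0.85 ± 0.17) and ARO3 (-0.82 ± 0.23) were lower as well, TRP4 was higher (0.82 ± 0.13), and TRP2 and TRP5 did not pass. In the arginine pathway ARG4 (-1.45 ± 0.26) and ARG1 (-0.84 ± 0.15) were lower. In the aspartate branch HOM2 (-1.14 ± 0.27) and HOM3 (-0.68 ± 0.20) were lower, and ASN2 stood at 792 and 812 CPM against 1762 and 1704 in the wild type (-0.93 ± 0.15, 0.00198). LEU1 (-1.08 ± 0.13), BAT1 (-1.01 ± 0.19), LEU9 (-0.65 ± 0.12), MET6 (-0.54 ± 0.13) and SER3 (-0.51 ± 0.15) complete the lower genes. The calls of ARO1, ARO3, HOM2, HOM3 and MET6 were lost without any 1 of the 4 libraries, that of SER3 without any 1 of 3, and that of TRP3 without IDR strain replicate 1.

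The genes higher in the starved IDR strain were led by LYS20, at 1678 and 2005 CPM against 626 and 659 in the wild type (1.70 ± 0.24, adjusted p = 0.00111). LYS9 was higher by 1.46 ± 0.16 (0.000429), CPA1 by 1.30 ± 0.14 (0.000413) and BAT2 by 1.11 ± 0.15 (0.000884). GCN4 stood at 514 and 544 CPM against 284 and 255 in the wild type, a difference of 1.15 ± 0.14 (0.000756) that held without each library in turn. MET17 (0.87 ± 0.16) and TRP4 held likewise, whereas LYS4 (0.65 ± 0.17), LEU4 (0.76 ± 0.24), SER33 (0.39 ± 0.13) and GDH1 (0.43 ± 0.12) were lost without any 1 of the 4 libraries and GLN1 (0.64 ± 0.14) without any 1 of 3. Within the branched-chain pathway BAT2 and LEU4 were higher and their paralogs BAT1 and LEU9 lower. LYS21 (0.50 ± 0.22) and LYS1 (0.39 ± 0.18) did not pass. Of the 27 genes with TGACTC in the window 3 were higher and 9 lower (median -0.38), and of the 24 without it 9 were higher and 8 lower (median 0.20). Across all genes these were 103 and 69 of 463 with it (median 0.04) and 805 and 696 of 5166 without it (median -0.01).

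**Figure D4:**
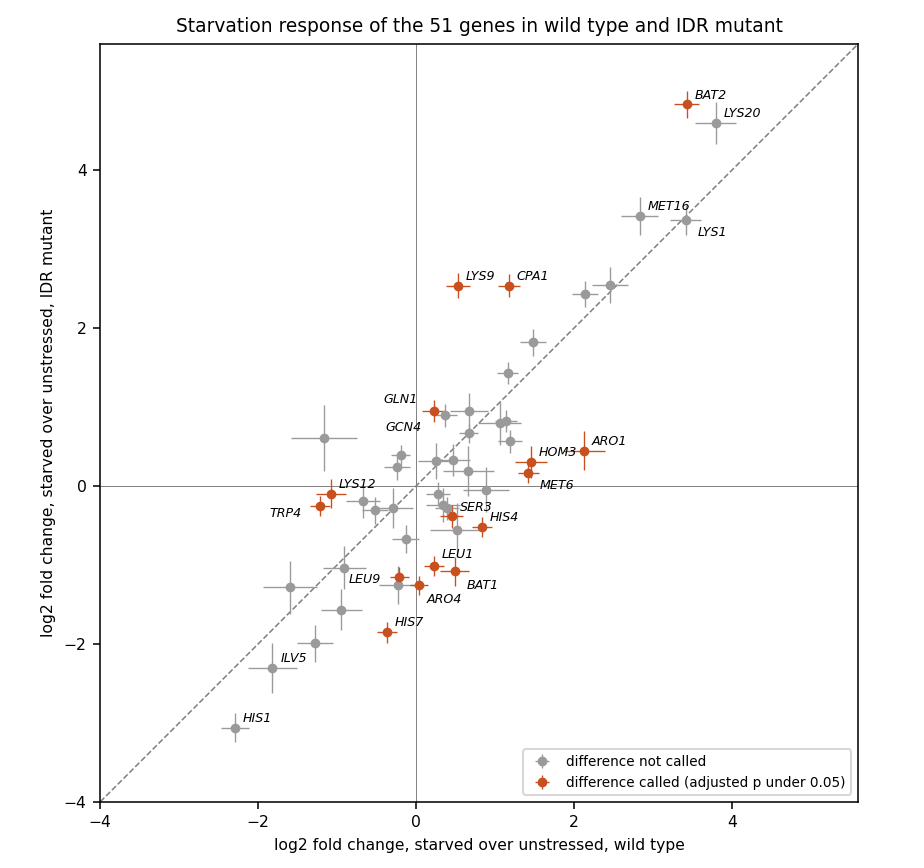
Log2 fold change of each of the 51 genes under starvation in the wild type (horizontal axis) and in the IDR strain (vertical axis), with standard errors; orange marks the 16 genes whose responses differed at an edgeR adjusted p under 0.05, and the dashed line marks equal responses. LYS9, CPA1 and BAT2 lie above the line and HIS7, HIS4, ARO4 and BAT1 below it.

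The response to starvation itself differed between the IDR strain and the wild type in 16 of the 51 genes, tested as an interaction, with 6 responses higher and 10 lower in the mutant. Of all genes 6.24% were higher and 5.50% lower (11.7% in all). LYS9 had the largest higher response, by 2.00 ± 0.22 on the log2 scale (adjusted p = 0.00394), followed by BAT2 with 1.40 ± 0.21 (0.00733) and CPA1 with 1.36 ± 0.19 (0.00693). Among lower responses were ARO1 with -1.68 ± 0.36 (0.0192), BAT1 with -1.57 ± 0.26 (0.00985), HIS7 with -1.48 ± 0.18 (0.0053), HIS4 with -1.35 ± 0.18 (0.00633) and ARO4 with -1.30 ± 0.17 (0.00594). Without replicate 1 of the unstressed wild type all 16 remained and 14 more passed, GCN4 among them (0.60 ± 0.17, 0.0296, against 0.52 ± 0.20, 0.118, with it), and 25.2% of all genes passed. Leaving out a library other than those of the unstressed wild type cut the count, and the share of all genes called fell as well. Each such fit leaves 1 library in a group. Without unstressed wild type replicate 2 that group held replicate 1 alone, the library that stood apart, so the larger count in that fit is not read as a result about these genes. LYS9, HIS7 and ARO4 kept their calls in all of these. Scaling by library size gave 1 higher and 14 lower and took the share of higher responses among all called genes from 53.1% to 28.0%, with the median of all genes at -0.36.

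Against the interface strain, the starved IDR strain was higher in 11 of the 51 genes and lower in 12, where 10.4% of all genes were higher and 9.86% lower (20.2% in all). HIS7 (-1.33 ± 0.13, adjusted p = 0.000985), HIS4 (-1.17 ± 0.13, 0.00127) and ARO4 (-1.02 ± 0.12, 0.00143) had the smallest p-values among the lower genes, and GDH1 (0.73 ± 0.12, 0.00507), GCN4 (0.70 ± 0.14, 0.011) and BAT2 (0.68 ± 0.14, 0.013) among the higher ones. HIS7, HIS4, ARO4 and ASN2 kept their calls without each library in turn. The count fell without any 1 of these starved libraries, and so did the share of all genes called. Each such fit leaves 1 library in a group. Scaling by library size gave 2 higher and 11 lower, beside 15.8% of all genes. The share of higher among all called genes then went from 51.3% to 33.2%. This comparison and the one against the wild type share the IDR strain libraries.

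Between the starved interface strain and the starved wild type 1 of the 51 genes was called, where 0.478% of all genes were. That gene was LYS9, at 545 and 570 CPM against 311 and 333, higher by 0.90 ± 0.15 (adjusted p = 0.0489). Its call was lost without either wild type library, without interface strain replicate 2 and under scaling by library size. No filter on low counts and a replicate block also lost it. GCN4 gave 0.45 ± 0.14 (0.255). No response to starvation differed between the interface strain and the wild type by edgeR in these 51 genes, where 0.0171% of all genes did. An unadjusted edgeR p under 0.05 was found for 13 of them, beside 19.4% of all genes. DESeq2 called 3 of them, beside 2.67% of all genes. Without replicate 1 of the unstressed wild type 1 passed, LYS9 (1.04 ± 0.13, 0.0117).

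Before starvation MET6 was the 1 gene of the 51 called between the unstressed IDR strain and the wild type, where 1.67% of all genes were. It stood at 301 and 295 CPM against 116 and 199 and was higher by 0.72 ± 0.13 (adjusted p = 0.0297), a call lost without either IDR strain library, and DESeq2 called 18 of the 51 and 23.1% of all genes. GCN4 stood at 369 and 381 CPM against 160 and 261 (0.63 ± 0.14, 0.0581). Against the wild type the unstressed interface strain had 0 calls by edgeR among the 51 and 0.0% of all genes were called. Of the 51, 14 had an unadjusted edgeR p under 0.05, beside 24.3% of all genes, and DESeq2 called 0, beside 1.71%. Between the mutants 0 of the 51 passed by edgeR (0.188% of all genes), 7 had an unadjusted p under 0.05 (6.51%) and DESeq2 called 5 (2.05%). Without unstressed wild type replicate 2, which leaves replicate 1 alone in its group, 23 were higher and 13 lower in each mutant against it, beside 64.6% of all genes called for the IDR strain and 62.0% for the interface strain.

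In nuclear extracts the labels of the mutants call for care. The labels were checked on 365 other genes called with at least a 2-fold difference between starved whole cells of the IDR and the interface strain. Their mean log2 shift from the wild type toward the IDR strain was 1.34 and 1.42 in its whole cell libraries. In the nuclear libraries labelled IDR strain it was -0.03, -0.16 and 0.66, and in those labelled interface strain 0.62 and 0.11. The whole cell libraries of the IDR strain served to choose these genes, which favours high values in them. A low nuclear value cannot be told apart from a strain difference that nuclear extracts do not share with whole cells. The nuclear comparisons follow labels that these values do not bear out for every library. The annotation file named in the count headers differs between the fractions, although all files list the same 6600 yeast features with the same start and end. A difference between fractions cannot be told apart from any other difference between these 2 sets of files. Between nuclear extracts 0 of the 51 genes were called by edgeR for the libraries labelled IDR strain against the wild type and 0 for those labelled interface strain, with 0.0% of all genes in both comparisons. Unadjusted edgeR p-values under 0.05 were found for 2 and 1 of the 51, beside 4.24% and 2.91% of all genes. DESeq2 called 0 in each, beside 0.197% and 0.23% of all genes.

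Compared with starved whole cells, nuclear extracts of the wild type held less of 22 of these transcripts, from histidine, aromatic, threonine, serine and asparagine genes among others. Of the 51, 22 were lower and 5 higher, where 14.0% of all genes were lower and 17.0% higher (31.0% in all), and the median of the 51 was -0.55 beside 0.02. SER3 was lowest, at 89.7 and 61.4 CPM in nuclear extracts and 242 and 197 in whole cells (-1.76 ± 0.19, adjusted p = 0.00069). HOM3 stood at 88.7 and 81.4 against 182 and 189 CPM (-1.34 ± 0.18, 0.00129), and ARG1 at 219 and 201 against 404 and 399 (-1.15 ± 0.17, 0.00178). ARO4 (-1.59 ± 0.35), HOM2 (-1.55 ± 0.23), BAT1 (-1.51 ± 0.35) and HIS4 (-1.46 ± 0.27) were lower too, and all 4 histidine genes were. Higher in nuclear extracts were ARG5,6, which makes 2 enzymes of arginine synthesis, at 174 and 249 against 67.1 and 70.0 CPM (1.42 ± 0.32, 0.00922), and ILV6 (1.17 ± 0.31), ILV5 (0.91 ± 0.25), CPA1 (0.71 ± 0.23) and MET17 (0.68 ± 0.23). ARG5,6 and MET17 overlap a feature on the opposite strand. GCN4 stood at 286 and 304 CPM in nuclear extracts and 284 and 255 in whole cells (-0.09 ± 0.21, 0.788). Some of the 27 calls were lost without either whole cell library or either nuclear one, and the share of all genes called fell too. Each such fit leaves 1 library in a group. Under scaling by library size 13 were lower and 6 higher, beside 27.4% of all genes. The share of higher among all called genes then went from 54.8% to 82.4%, with the median of all genes at 0.24.

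The libraries labelled interface strain gave 21 of the 51 lower and 4 higher in nuclear extracts, where 17.0% of all genes were lower and 17.3% higher (34.3% in all). BAT1 was lowest, at 98.5 and 98.3 CPM against 328 and 365 in whole cells (-1.86 ± 0.36, adjusted p = 0.0041), followed by ARO4 (-1.58 ± 0.35) and HOM2 (-1.56 ± 0.23). ARG5,6 (1.56 ± 0.33), ILV5 (1.27 ± 0.26), ILV6 (0.91 ± 0.30) and ARG3 (0.76 ± 0.24) were higher. Some calls were lost without the nuclear library labelled interface strain replicate 1, and the share of all genes called fell. That fit leaves 1 library in its group. Under scaling by library size 17 were lower and 5 higher, beside 29.1% of all genes. The share of higher among all called genes then went from 50.5% to 61.8%. In the libraries labelled IDR strain 6 were lower and 0 higher, where 4.98% of all genes were lower and 4.63% higher (9.61% in all): LYS9 (-1.24 ± 0.19, 0.00923), LYS1 (-1.03 ± 0.19), LYS12 (-0.84 ± 0.16), SER3 (-0.84 ± 0.17), GCN4 (-0.82 ± 0.19, 0.0269) and HIS5 (-0.63 ± 0.16). GCN4 held 363, 318 and 356 CPM in the nuclear libraries with that label and 514 and 544 in whole cells. Without the library labelled IDR strain replicate 3 the count was 14 lower and 1 higher, beside 18.1% of all genes called. Without its replicate 1 the count was 1, beside 1.25% of all genes, and without its replicate 2 it was 4, beside 3.47%. All calls were lost without either whole cell library of that strain, which leaves 1 in its group. Scaling by library size left 2 lower and 1 higher and took the share of higher among all called genes from 48.2% to 80.7%, with the median of all genes at 0.23.

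The difference between fractions was tested against that of the wild type. HIS7 alone among the 51 differed for the libraries labelled IDR strain, where 1.40% of all genes did: nuclear over whole cell was -0.94 ± 0.23 in the wild type and the difference was 1.46 ± 0.31 (adjusted p = 0.0466). HIS7 stood at 123 and 90.0 CPM in nuclear extracts of the wild type and at 110, 88.9 and 53.6 in those labelled IDR strain, so these overlapped, while the whole cell values were 183 and 167 against 52.2 and 47.2. Without the library labelled IDR strain replicate 3, 21 of the 51 and 19.1% of all genes were called, 5 and 4.88% without nuclear wild type replicate 1, and 0 of the 51 without any 1 of the other 7. Scaling by library size left 0 and took the share of higher among all called genes from 21.7% to 4.08%. For the libraries labelled interface strain 0 of the 51 and 0.0% of all genes were called by edgeR. An unadjusted edgeR p under 0.05 was found for 0 of the 51, beside 2.98% of all genes, and DESeq2 called 0, beside 0.0%.

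Other genes of amino acid metabolism, from 3 lists set beside the 51, gave the following counts. Among 38 further pathway genes 11 rose and 16 fell under starvation in the wild type, 13 and 14 in the IDR strain and 13 and 17 in the interface strain. Of all genes 31.7% rose and 34.5% fell in the wild type, 33.0% and 34.3% in the IDR strain and 29.7% and 30.3% in the interface strain. ARO9, an aromatic aminotransferase also used to break down amino acids, rose by 6.36 ± 0.40 in the wild type, from 8.17 and 5.47 to 599 and 607 CPM, and GDH2, the glutamate dehydrogenase that degrades glutamate, by 2.36 ± 0.23. HIS6, another histidine gene, fell (-1.89 ± 0.17). Among 19 regulators 10 rose and 5 fell in the wild type: LYS14, the activator of lysine genes, rose by 2.41 ± 0.18 and GCN1, an activator of Gcn2, by 1.18 ± 0.13, while GCN3 fell (-1.59 ± 0.30). In the starved IDR strain against the wild type 4 of the 19 regulators were higher and 3 lower, beside 15.9% and 13.3% of all genes, and the 3 lower were GCN1 (-1.07 ± 0.13), GCN20 (-1.06 ± 0.14) and GCN2 (-0.56 ± 0.16). Of 18 amino acid permeases 9 rose and 4 fell in the starved wild type, beside 31.7% and 34.5% of all genes. In the starved IDR strain against it 9 were higher and 1 lower, beside 15.9% and 13.3%. DIP5 stood at 549 and 593 CPM in that mutant and 125 and 109 in the wild type (2.47 ± 0.21, adjusted p = 0.000184), and GAP1, the general permease, at 416 and 453 against 119 and 127 (2.00 ± 0.14, 8.83e-05). In nuclear extracts of the wild type against whole cells 10 permeases were higher and 1 lower, with a median of 1.08. Of all genes 17.0% were higher and 14.0% lower, with a median of 0.02. The libraries labelled interface strain gave 10 higher and 0 lower, beside 17.3% and 17.0% of all genes. Those labelled IDR strain gave 1 higher and 0 lower, beside 4.63% and 4.98%.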

How the data were processed

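The deposited values are counts, whole-number read counts per gene with no normalization. Per the file headers, the authors ran featureCounts 2.0.1 on gene features in reverse-stranded mode and shared multiply mapped reads as fractions, yet 0 values are fractional. Per the submitters' processing notes the tools before it were cutadapt and TopHat2; for both, the version is not given in the sources used here. Per the labels' protocols, poly(A) RNA was captured on oligo(dT) of 25 nt. All files list the same 6600 yeast features, and the nuclear files add 6 spike-in sequences, 4 with reads.

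Counts were analysed in edgeR 4.0.16 (R 4.3.3) with TMM factors, filterByExpr at a minimum count of 10 and the quasi-likelihood test. Adjusted p-values (Benjamini-Hochberg) run over all genes of a fit, with a threshold of 0.05. Whole cells (12 libraries) gave 5853 tested genes. Nuclear extracts (7 libraries) gave 6086, and the 13 starved libraries, both fractions together, gave 5944. Nuclear libraries below 0.2 of the median total were left out. With 1 of 2 replicates left out, the remaining one is taken to vary as other groups do. Alternatives were RLE factors, library size alone, no filter on low counts, DESeq2 1.42.0, the compared groups alone, a replicate block, all nuclear libraries and each library left out. Promoter windows come from the RefSeq R64 assembly, which matched 5917 of the 6600 features, 5888 with the same start and end. Any of the 51 genes could be named, and from the other lists up to 3 called genes with the smallest adjusted p in each direction. Members, lists and tests were chosen with earlier results of these data known. Comparisons that share a group of libraries are not independent. The values of 1 of the 51 genes are not reported here, though the counts include it.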

Additional observations from a re-analysis of the deposited data

Results flagged for a closer look

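The response to starvation differed between the IDR strain and the wild type, by the interaction test of edgeR, in 16 of the 51 genes, and these differences between groups mark them for a closer look. On the log2 scale the mutant's response was higher for LYS9 (2.00), BAT2 (1.40), CPA1 (1.36), LYS12 (0.99), TRP4 (0.97) and GLN1 (0.73). It was lower for ARO1 (-1.68), BAT1 (-1.57), HIS7 (-1.48), HIS4 (-1.35), ARO4 (-1.30), MET6 (-1.26), LEU1 (-1.24), HOM3 (-1.15), LEU9 (-0.94) and SER3 (-0.84). HIS7 also differed between fractions: nuclear over whole cell was 1.46 higher on the log2 scale in the libraries labelled IDR strain than in the wild type. That call was lost under scaling by library size and in most fits with a library left out. The nuclear values of HIS7 overlapped, and the label check did not bear out that label for every library. Spike-in sequences, which no comparison used, took up to 1.65% of the counts of a deeper nuclear library.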

How the results depend on the processing

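Counts of the 51 genes called moved by over 1.5 times under these alternatives, and the cause was not tested. With only the compared groups fitted, 20 were called for starvation in the wild type (36 before), beside 43.4% of all genes (66.2% before). That setting gave 0 for the unstressed IDR strain against the wild type (1), beside 0.0% (1.67%). It gave 14 for the unstressed mutants against each other (0), beside 11.3% (0.188%). For nuclear against whole cell in the interface strain it gave 13 (25), beside 13.2% (34.3%). Library size alone gave 0 for the unstressed IDR strain, beside 0.803% of all genes. For the starved interface strain against the wild type it gave 0 (1), beside 0.325% (0.478%). For the starved mutants against each other it gave 13 (23), beside 15.8% (20.2%). For nuclear against whole cell in the IDR strain it gave 3 (6), beside 7.34% (9.61%). The fraction difference of that strain gave 0 (1), beside 1.65% (1.4%). DESeq2 gave 18 (23.1% of all genes) and 5 (2.05%) for the unstressed IDR strain against the wild type and against the interface strain. It gave 5 (3.84%) for the starved interface strain and 3 (2.67%) for its response. For the IDR strain it gave 16 (17.3%) for nuclear against whole cell and 16 (10.7%) for the fraction difference. For the starved interface strain RLE factors gave 2 (0.564% of all genes) and no filter 0 (0.434%). Most fits with a library left out hold 1 library in a group. In most of them the share of all genes called moved as well.

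With each library left out, calls ranged from 24 to 42 for starvation in the wild type, 28 to 30 in the IDR strain and 24 to 28 in the interface strain. Unstressed, both mutants against the wild type ranged from 0 to 36 and each other at 0. Starved, the IDR strain gave 18 to 19 against the wild type and 5 to 14 against the interface strain, which gave 0 to 2 against the wild type. Differences of response ranged from 3 to 35 and 0 to 33. Nuclear comparisons stayed at 0, nuclear against whole cell ranged from 9 to 21, 0 to 15 and 18 to 21 in wild type, IDR and interface strain, and fraction differences from 0 to 21 and at 0.

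Same-numbered replicates did not deviate together in every pair: correlations of their deviations ran from -0.48 to 0.33 over 30 whole cell pairs and -0.29 to 0.63 over 6 nuclear pairs. Where both groups hold 2 libraries, replicates 1 and 2 give the same correlation by construction, so each whole cell value is counted for both. The replicate block gave 0 calls for the starved interface strain (0.342% of all genes). It gave 15 for nuclear against whole cell in the IDR strain (20.1%) and 21 for its fraction difference (21.6%). No other count moved by over 1.5 times under it.

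Of 2548 values of single genes, 10 turned in sign. SER33, called under starvation in the IDR strain, gave -0.0024 by library size; the other 9 were values of GCN4 that were not called. GCN4 ranged from -0.0069 to 0.2465 for the unstressed interface strain with each of its replicates left out (lowest without replicate 1) and gave -0.0181 for its response by library size. For nuclear against whole cell, GCN4 in the wild type gave 0.1294 by library size and -0.1833 to 0.0001 with each nuclear replicate left out. In the interface strain it gave -0.0767 with all nuclear libraries, -0.0349 without whole cell replicate 1 and -0.1801 to 0.2143 with each nuclear replicate left out, and its fraction difference gave -0.0564 by library size and -0.0916 to 0.3034 with each nuclear replicate left out.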
